A study of Mus musculus with 3 samples.

Results

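The 10 genes described here make, bind or break down hyaluronan. They are the hyaluronan synthases *Has1*, *Has2* and *Has3*, the enzymes *Ugdh* and *Uap1* that make its nucleotide sugar precursors, the hyaluronidases *Hyal1* and *Hyal2*, the surface receptor *Cd44*, and the matrix partners *Vcan* (versican) and *Itih5*. They were taken by symbol from the 32285 genes counted, and all 10 had at least 1 UMI.

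Hyaluronan is a long, unsulfated sugar chain of the extracellular matrix. Unlike other glycosaminoglycans, it is spun out directly through the plasma membrane by the synthases, which join UDP-glucuronic acid, made by UGDH, to UDP-N-acetylglucosamine, made by UAP1. Outside the cell the chain swells with water, is organized by binding proteins such as versican and by proteins related to inter-α-trypsin inhibitor heavy chains, and is sensed by CD44. Hyaluronidases at the surface and in lysosomes cut it down, and lymphatic vessels clear fragments through LYVE1. In skeletal muscle, fibro-adipogenic progenitors (FAPs) are mesenchymal cells that lay down much of this matrix.

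Mononuclear cells were released from the diaphragm of male mice with collagenase II, sorted to remove dead cells and captured for single-cell RNA-Seq. The WT CD library came from C57Bl/6J mice on control diet, the WT HFD library from C57Bl/6J mice on a diet with 45% of calories from lipid, and the KO HFD library from B6.129S2-Thbs1tm1Hyn/J mice, which lack thrombospondin-1 in the whole body, on the same lipid-rich diet. All mice started their diet at 2 months of age and stayed on it for 6 months. Each library pooled 2 mice without a record of which cell came from which mouse, so each group is 1 sample, no difference between libraries has a replicate check, and no test was made. A KO CD library was not analysed here.

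The WT CD library held 34312860 UMIs (unique molecular identifiers, 1 for each captured mRNA molecule) over 4132 cell barcodes, the WT HFD library 31967976 over 3774, and the KO HFD library 36478779 over 4369. The median barcode held 7632.5, 8041.5 and 7554 UMIs in that order. WT CD shared 7 barcodes with WT HFD and 7 with KO HFD, and WT HFD shared 2 with KO HFD. *Thbs1* was counted at 193, 232 and 229 CPM in FAP-like cells of WT CD, WT HFD and KO HFD, where CPM is a gene's UMIs for every 1e6 UMIs in the summed cells. These tags lie at the 3′ end of the transcript, so their presence in the KO HFD library checks nothing about its genotype.

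Cells were clustered without the hyaluronan genes, and each cluster took the name of its markers. Of 12275 cells, 6642 were FAP-like (54.1%), with 2238 in WT CD, 1992 in WT HFD and 2412 in KO HFD. Their defining markers *Pdgfra*, *Pdgfrb*, *Dcn* and *Osr1* summed to 17034, 14877 and 16430 CPM in WT CD, WT HFD and KO HFD. Markers of other cells were present at varied levels: those of endothelium summed to 9.88, 10.6 and 12.4 CPM, of macrophages to 11.4, 13.7 and 14.2, of mesothelium to 0.710, 0.426 and 0.571, and of muscle stem cells to 0.507, 0.0533 and 0.238. The tenocyte set reached 947, 950 and 802 CPM, mostly *Thbs4*, the monocyte set 54.7, 53.5 and 63.2, mostly *Plac8*, and the myofiber set 24.99, 19.6 and 19.2, mostly *Acta1*. The erythroid set was 2.18, 38.4 and 2.86 CPM, highest in WT HFD and led there by *Hbb-bs*, and its part in the library differences was not tested. Intervals in brackets are 95% intervals for counting error only. They say nothing of how mice vary.

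The start regions of *Has1*, *Ugdh* and *Uap1* are shown because these 3 genes were at their highest in the same FAPs, as the values by state and by cell show. RefSeq (GRCm38.p6) gave 250 bases before to 50 after the start for 8 of the 10 genes, without *Has2* and *Has3*. Sequences run 5′ to 3′ on the gene's strand, with capitals for any match, on either strand, to TGANTCA (AP-1), TGACGTCA (the cAMP response element, CRE), GGGCGG (Sp1), CCAAT or TATAAA. *Has1* is on chromosome 17, the sequence at chr17:17855139-17855438 (minus strand), *Ugdh* on chromosome 5, at chr5:65435793-65436092 (minus), and *Uap1* on chromosome 1, at chr1:170174915-170175214 (minus).
Has1: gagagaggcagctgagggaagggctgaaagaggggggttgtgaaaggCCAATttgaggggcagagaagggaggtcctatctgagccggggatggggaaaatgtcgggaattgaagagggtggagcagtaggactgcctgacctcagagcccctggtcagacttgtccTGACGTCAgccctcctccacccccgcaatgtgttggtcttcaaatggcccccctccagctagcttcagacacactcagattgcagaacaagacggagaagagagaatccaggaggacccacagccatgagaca
Ugdh: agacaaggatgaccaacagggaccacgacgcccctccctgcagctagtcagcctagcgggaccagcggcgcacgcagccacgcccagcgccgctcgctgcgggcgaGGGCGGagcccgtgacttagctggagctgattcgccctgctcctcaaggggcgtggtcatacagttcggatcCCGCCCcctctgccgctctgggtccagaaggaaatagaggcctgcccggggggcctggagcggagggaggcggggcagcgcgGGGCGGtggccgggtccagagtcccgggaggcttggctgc
Uap1: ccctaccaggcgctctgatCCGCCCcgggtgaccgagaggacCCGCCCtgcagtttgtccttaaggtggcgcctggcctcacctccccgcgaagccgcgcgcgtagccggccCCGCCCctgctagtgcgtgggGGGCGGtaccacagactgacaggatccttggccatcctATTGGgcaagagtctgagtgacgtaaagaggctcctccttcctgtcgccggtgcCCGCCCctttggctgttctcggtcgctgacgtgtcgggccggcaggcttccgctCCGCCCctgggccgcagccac

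In capitals, the *Has1* sequence holds 1 CRE, which begins at position -83 from the start, and 1 CCAAT. The CRE letters are found in 1.79% of 32851 such sequences of all genes and the CCAAT letters in 37.4%. *Ugdh* has 3 Sp1 matches, and *Uap1* has 6 and 1 CCAAT match on the other strand. The Sp1 letters are found in 35.7% of all sequences. None of the 3 matches TGANTCA (7.81% of all) or TATAAA (13.6%). The GC content is 57.0% for *Has1*, 71.0% for *Ugdh* and 69.0% for *Uap1*, and the median of all is 52.7%. These matches describe letters only, and binding was not measured.

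In GENCODE annotation of GRCm38, *Has1* spans chr17:17843323-17855205 (minus strand), *Has2* chr15:56665627-56694539 (minus) and *Has3* chr8:106870242-106884566 (plus). *Ugdh* spans chr5:65413221-65435949 (minus) and *Uap1* chr1:170141938-170174957 (minus). *Vcan* spans chr13:89655312-89742509 (minus), *Cd44* chr2:102811141-102901665 (minus) and *Itih5* chr2:10153571-10256529 (plus). *Hyal2*, at chr9:107567945-107572779, and *Hyal1*, at chr9:107576927-107581710, are neighbours on the plus strand.

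Of the 10 genes, 6 had their highest level in FAP-like cells among the 16 named classes of at least 50 cells. The share of all genes that are highest there is not given, so this count describes the 10 genes only. *Has1* stood at 154 CPM there (151 to 157), 107 in tenocyte-like cells and 69.0 in mesothelial-like cells, and at 20.1 or less in every other class of that size. *Has2* stood at 57.9 CPM in FAP-like cells and 28.9 in tenocyte-like cells, and it had 0 UMIs in 177 mesothelial-like cells, which allows up to 1.53 CPM (3 UMIs). FAP-like cells held 59512518 of the 102759615 UMIs of all genes. Of single genes, they held 94.5% of all *Has1* UMIs, 96.8% of *Has2*, 94.9% of *Vcan* and 94.4% of *Itih5*. For the 2 precursor enzymes the shares were 89.9% (*Ugdh*) and 89.4% (*Uap1*). *Has3*, the remaining synthase, was close to undetected among the mononuclear cells captured here, with 40 UMIs over all cells.

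Mesothelial-like cells therefore carried *Has1* with no *Has2* UMI in any of the 3 libraries, though within a library the limit on *Has2* is looser. Their *Has1* level was 62.5 CPM in WT CD, 65.8 in WT HFD and 79.7 in KO HFD, from 40, 86 and 51 cells. The counting intervals of the 3 values overlapped.

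**Figure D1:**
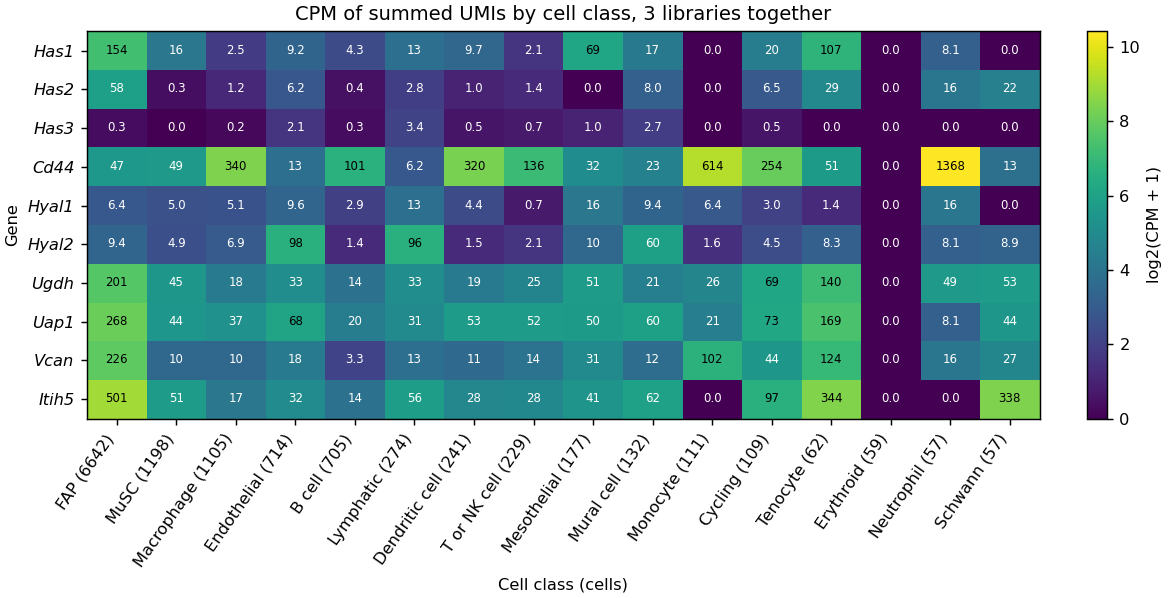
Level of each hyaluronan gene (rows) in each named cell class of at least 50 cells (columns, with the number of cells), as CPM of UMIs summed over the 3 libraries. Color gives log2(CPM + 1) and the printed number the CPM. The synthases *Has1* and *Has2*, both precursor enzymes, *Vcan* and *Itih5* peak in FAP-like cells, *Cd44* in neutrophil-like cells (1368) and *Hyal2* in endothelial-like cells (97.5).

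The receptor and the hyaluronidases had their highest levels in other classes. *Cd44* was highest in neutrophil-like cells (1368 CPM), followed by monocyte-like (614), macrophage-like (340) and dendritic-like cells (320). The neutrophil and monocyte intervals were apart, and those of macrophages and dendritic cells overlapped. After a quality filter and in thinned cells 13 classes were ordered in place of 16, and monocyte-like cells came first. The 57 neutrophil-like cells had a median of 2017 UMIs, so in thinned cells their class fell under 50 cells and out of the order. It may also have left the order after the quality filter. FAP-like cells stood at 46.6 CPM and held 26.6% of *Cd44* UMIs. *Hyal2*, an enzyme anchored at the cell surface, was at 97.5 CPM in endothelial-like, 96.3 in lymphatic-like and 60.2 in mural-like cells, and at 9.41 in FAP-like cells, which by their number held 44.9% of its UMIs. The endothelial level was 112 CPM in WT CD, 87.3 in WT HFD and 90.6 in KO HFD, with overlapping intervals. *Hyal1*, a lysosomal hyaluronidase, did not exceed 16.3 CPM in any class of that size. FAP-like cells held 61.3% of its UMIs, near their share of the UMIs of all genes. *Hyal1* overlaps *Hyal3* on the same strand, so tags in the overlap cannot be assigned to 1 of them.

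The other hyaluronan receptors had classes of their own. *Lyve1*, the lymphatic hyaluronan receptor, stood at 1789 CPM in lymphatic-like cells, with 1270 in WT CD, 2182 in WT HFD and 1563 in KO HFD. The scavenger receptor *Stab1* stood at 636 CPM in the same cells. *Tlr2* was highest in monocyte-like cells (219) and *Hmmr*, a hyaluronan receptor tied to mitosis, in cycling cells (209). In macrophages the receptors divided the class: the cluster led by *Folr2*, *Ms4a7* and *Ccl12* carried *Lyve1* at 305 CPM and *Cd44* at 220, and the cluster led by *Retnla*, *Lyz1* and *Fcrls* carried *Lyve1* at 2.76 and *Cd44* at 487.

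The macrophage clusters also took different shares of the class in each library. Over the whole class, *Cd44* was 425 CPM in WT CD, 278 in WT HFD and 346 in KO HFD, so WT CD was highest and WT HFD lowest. The *Retnla* cluster made up 44.5% of macrophage-like cells in WT CD, 20.5% in WT HFD and 38.5% in KO HFD. Within the *Folr2* cluster, *Cd44* was 197, 230 and 221 CPM in the same order, and the log2 ratio of WT HFD to WT CD, 0.23 (-0.011 to 0.47), spanned 0. Within the *Retnla* cluster it was 564, 446 and 460 CPM, a log2 ratio of WT HFD to WT CD of -0.34 (-0.49 to -0.19). Another cluster, led by *Saa3*, *Alox15* and *Cd5l*, had 8, 56 and 14 cells, and *Cd44* at 192, 131 and 141 CPM.

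FAP-like cells made 9 clusters, called here states and named by their first 2 leading genes with a gene symbol (a clone identifier was passed over). The 10 leading genes of the *Sfrp2 Avpr1a* state included *Tnmd* and *Thbs4*, which also mark tenocytes. The state led by *Dact2* and *Stmn4* (979 cells) was highest for *Has2* (130 CPM), *Cd44* (75.2), *Ugdh* (494), *Uap1* (631) and *Vcan* (395). For *Has1* it was highest together with the *Ociad2 Cd109* state, at 305 and 296 CPM, with overlapping intervals. The *Dact2 Stmn4* state held 14.7% of FAP-like cells and 18.1% of their UMIs, but 35.9% of their *Has1* UMIs, 44.6% of *Ugdh* and 42.7% of *Uap1*. The state led by *Sfrp2* and *Avpr1a* (1057 cells) was lowest for *Has1* (39.9), *Has2* (10.9), *Ugdh* (68.5), *Uap1* (84.9) and *Vcan* (94.8). *Has3* had 17 UMIs over all FAP-like cells, too few to order the states.

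*Itih5*, whose product belongs to the inter-α-trypsin inhibitor heavy chain family, followed another order. It was highest in the *Cxcl14 Mme* state (863 CPM), then *Ret Pgf* (690), and lowest in *Ociad2 Cd109* (284). Over the 27 pairs of state and library, *Has2* and *Uap1* had a Pearson r of 0.91, *Ugdh* and *Uap1* 0.89, *Has1* and *Uap1* 0.85, and *Has1* and *Itih5* 0.020. *Cd44* and *Hyal1* had an r of -0.82. These are descriptions: the points share 3 libraries, and the states differ in depth and in number of cells. The state with 53 cells, led by *Ifit3* and *Ifit1*, is included.

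The summed level of 13 genes that respond to tissue digestion (*Fos*, *Jun*, *Egr1* and others, all detected, with *Fos* the most abundant) was 9659 CPM in the *Dact2 Stmn4* state and 23703 in *Cxcl14 Mme*, the lowest and highest of the 9. The part of digestion in the order of states was not tested.

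**Figure D2:**
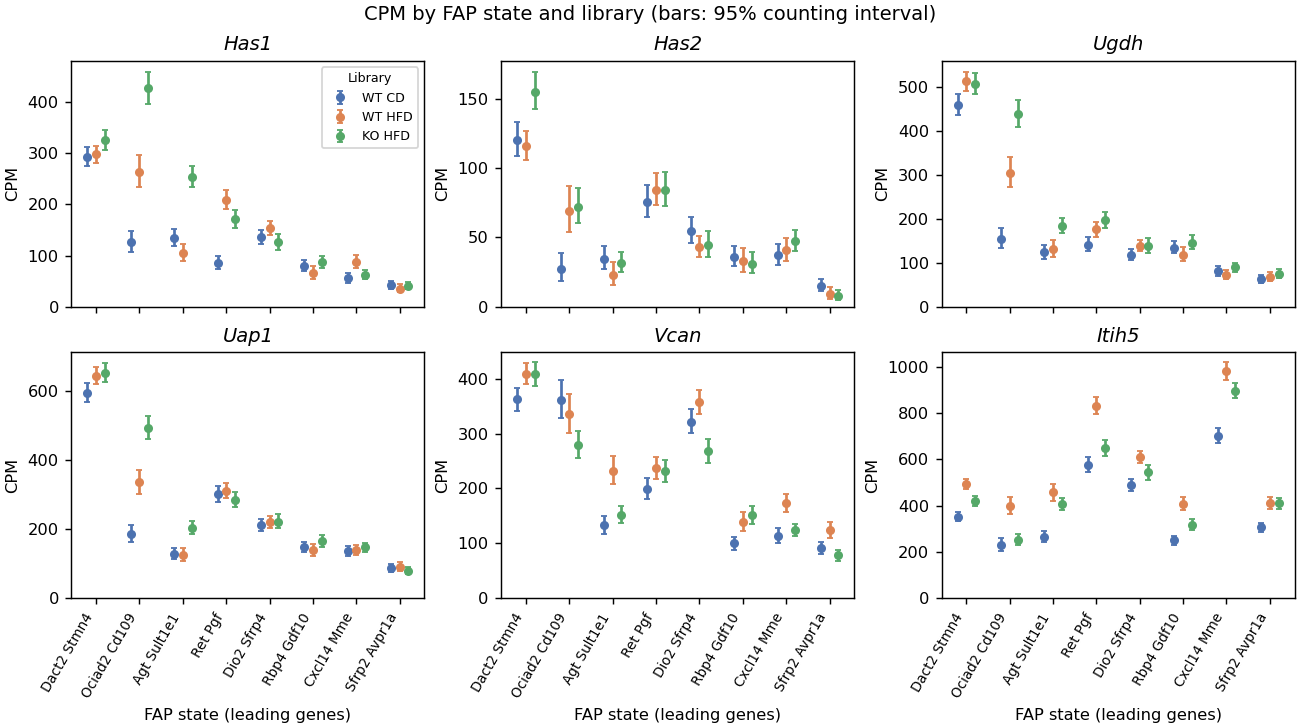
CPM (vertical axes, from 0) of 6 hyaluronan genes in 8 FAP states (horizontal axis, ordered by *Has1*; the state of 53 cells is left out), by library, with 95% counting intervals as bars. In the *Ociad2 Cd109* state the counting intervals of *Has1*, *Ugdh* and *Uap1* stand apart by library, and *Itih5* is higher in WT HFD than in WT CD in each state shown.

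In FAP-like cells as a whole, the members measured well enough to compare were all higher in WT HFD than in WT CD, by less than 1.5-fold. Of the 10 genes, 7 reached 10 CPM in at least 1 of these 2 libraries. *Has3*, *Hyal1* and *Hyal2* did not. None of the 7 was 1.5-fold higher or lower, where 0.667% of 8097 genes tested were higher and 0.815% lower. With a threshold of 25% above the lower value, 4 of the 7 were higher (*Has1*, *Ugdh*, *Vcan* and *Itih5*), beside 6.63% of all genes, and 0 lower, beside 3.09%. *Ugdh* was under that threshold with TMM scaling (0.29) and with cells gated on marker UMIs (0.27). The median log2 ratio of the 7 was 0.36, and that of all genes tested 0.084, with 70.8% of them above 0. Over all genes, 54 were 1.5-fold higher and 66 lower, and with edgeR's TMM scaling 33 and 107.

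Of the 7, *Itih5* differed most between WT HFD and WT CD. With WT HFD set against the other 2 libraries combined, the log2 ratio of *Vcan* (0.38) was just above that of *Itih5* (0.37). *Itih5* was 402 CPM in WT CD, 595 in WT HFD and 512 in KO HFD, so WT CD was lowest and WT HFD highest. The log2 ratio of WT HFD to WT CD was 0.57 (0.52 to 0.61), and the WT HFD value was higher in each of the 9 FAP states. With cells thinned to 3000 UMIs, and 66, 36 and 57 shallower FAP-like cells left out, *Itih5* was found in 58.0% of FAP-like cells of WT CD, 71.7% of WT HFD and 64.2% of KO HFD. Unthinned shares were 77.6, 90.2 and 82.3%. B-like cells, a lineage not known for *Itih5*, gave 1.81% thinned and 4.68% unthinned, at a median of 8384 UMIs against 8614 in FAP-like cells.

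*Vcan*, the large proteoglycan that binds hyaluronan, was 202 CPM in WT CD, 268 in WT HFD and 209 in KO HFD. Only WT HFD stood apart, with log2 ratios of 0.41 (0.35 to 0.47) to WT CD and of KO HFD to it of -0.36 (-0.42 to -0.30). In thinned cells *Vcan* was found in 32.2, 44.2 and 34.0% of FAP-like cells, and in 0.151% of B-like cells. *Cd44* was also highest in WT HFD, with 45.5, 53.8 and 41.3 CPM in WT CD, WT HFD and KO HFD, and KO HFD was lowest.

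*Has1* was 121 CPM in WT CD, 164 in WT HFD and 176 in KO HFD. Both HFD libraries stood above WT CD, with a log2 ratio of WT HFD to WT CD of 0.44 (0.36 to 0.51). By state, WT HFD was below WT CD in *Sfrp2 Avpr1a* (35.4 and 41.9 CPM), *Rbp4 Gdf10* (66.1 and 79.9) and *Agt Sult1e1*. The intervals overlapped in *Sfrp2 Avpr1a* and *Rbp4 Gdf10*. WT HFD was above WT CD in *Cxcl14 Mme* (87.5 and 55.9 CPM), *Ret Pgf* and *Ociad2 Cd109*, and *Dact2 Stmn4* was close to level. Thinned, 16.3, 19.99 and 19.6% of FAP-like cells had a *Has1* UMI, beside 0.151% of B-like cells. Unthinned, the shares were 27.2, 34.1 and 30.8%, beside 1.13% of B-like cells. *Has2* was 52.7, 59.0 and 61.9 CPM, with a log2 ratio of WT HFD to WT CD of 0.16 (0.039 to 0.29), which became 0.059 with FAP states weighted alike, -0.0080 with k-means states and -0.026 with a finer split of states. *Has3* was at 0.304, 0.213 and 0.333 CPM, from 6, 4 and 7 UMIs, too few to order the libraries.

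The precursor enzymes ran with *Has1*. *Ugdh*, which oxidizes UDP-glucose, was 168, 216 and 219 CPM, and *Uap1* was 234, 291 and 280 CPM in WT CD, WT HFD and KO HFD. Both were higher in each HFD library than in WT CD. Log2 ratios of WT HFD to WT CD were 0.36 (0.30 to 0.43) for *Ugdh* and 0.31 (0.26 to 0.37) for *Uap1*. With the 8 FAP states of at least 50 cells in every library weighted alike, these were 0.25 and 0.16, with 0.35 for *Has1*, 0.16 for *Cd44*, 0.25 for *Vcan* and 0.54 for *Itih5*. *Ugdh* and *Vcan* were then under the 25% threshold. The *Dact2 Stmn4* state, where the enzymes are highest, made up 12.9% of FAP-like cells in WT CD, 18.7% in WT HFD and 13.2% in KO HFD. The hyaluronidases were low: *Hyal2* was 8.62, 9.38 and 10.2 CPM, and *Hyal1* 6.59, 5.86 and 6.61, with overlapping intervals.

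**Figure D3:**
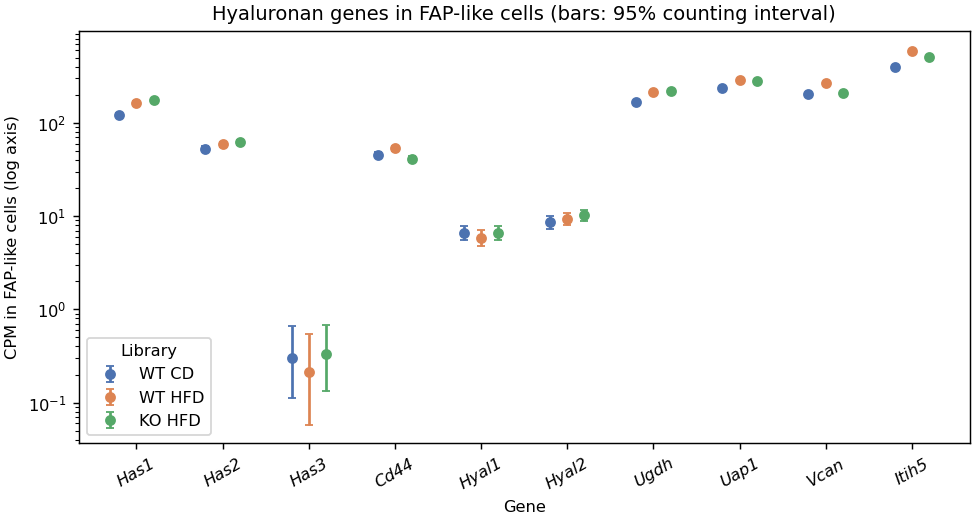
CPM of the 10 hyaluronan genes in FAP-like cells (vertical axis, logarithmic), 1 point per library with its 95% counting interval. *Itih5* and *Vcan* are highest in WT HFD, *Has1* is lowest in WT CD, and *Has3* stays under 1 CPM in each library.

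For KO HFD against WT HFD, 8 of the 10 genes could be compared (*Hyal2* reached 10 CPM in KO HFD). None was 1.5-fold higher, beside 0.581% of 8094 genes, or lower, beside 0.272%. With the 25% threshold, 2 of the 8 were lower (*Cd44* and *Vcan*), beside 2.77% of all genes, and 0 higher, beside 2.93%. With FAP states weighted alike neither passed it (log2 ratios of -0.31 for *Cd44* and -0.25 for *Vcan*), nor with k-means states (-0.31 and -0.24). The median log2 ratio of the 8 was -0.016, and that of all genes -0.042. *Cd44* had a log2 ratio of -0.38 (-0.51 to -0.25) and *Itih5* of -0.22 (-0.25 to -0.18). The intervals of *Has2* (-0.048 to 0.19), *Ugdh* (-0.041 to 0.081) and *Uap1* (-0.11 to 0.00097) reached 0. Both comparisons use the WT HFD library, so a high value in that library alone makes the first ratio positive and the second negative.

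**Figure D4:**
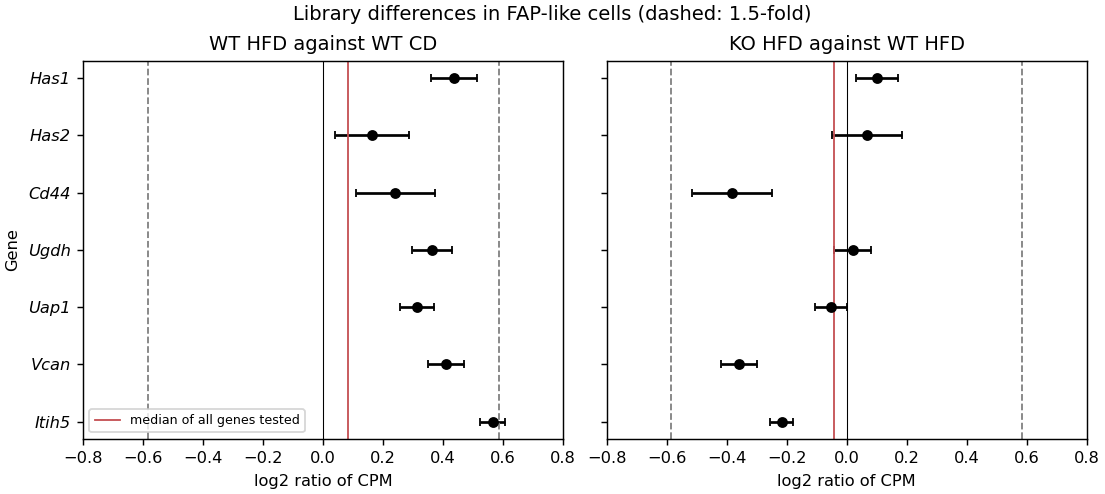
Log2 ratios of CPM (horizontal axes) in FAP-like cells for 7 hyaluronan genes, WT HFD against WT CD on the left and KO HFD against WT HFD on the right. Bars are 95% counting intervals, dashed lines mark 1.5-fold and the red line is the median of all genes tested; no gene lies past a dashed line, and *Itih5* comes closest on the left at 0.57.

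The summed digestion-response genes were 15073 CPM in FAP-like cells of WT CD, 13593 in WT HFD and 16661 in KO HFD, lowest in the library where *Itih5*, *Vcan* and *Cd44* were highest. Of these 13 genes, 2 were 1.5-fold lower in WT HFD than in WT CD, beside 0.815% of all genes, the heat shock genes *Hspa1a* (321 and 158 CPM) and *Hspa1b* (261 and 121 CPM), near-identical copies that may share reads. All 13 had a ratio above 0 in KO HFD against WT HFD, beside 38.2% of all genes. The part of this response in the library differences was not tested.

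The *Ociad2 Cd109* state was examined after its values were seen, because *Has1*, *Ugdh* and *Uap1* were spread widely over the libraries there. It held 91 cells in WT CD, 88 in WT HFD and 147 in KO HFD. *Has1* was 127 CPM in WT CD (107 to 149), 263 in WT HFD (233 to 296) and 427 in KO HFD (397 to 458). *Ugdh* was 155, 304 and 438 CPM, and *Uap1* 184, 334 and 492 CPM. The 3 genes took the same order, KO HFD highest and WT CD lowest, with no overlap of counting intervals. *Has2* was 27.2, 69.2 and 72.1 CPM, with WT CD lowest and both HFD libraries alike within their intervals. *Vcan* went the other way, at 362, 335 and 280 CPM.

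In thinned cells of this state, *Has1* was found in 18.7% in WT CD (11.3 to 28.2), 30.7% in WT HFD (21.3 to 41.4) and 43.5% in KO HFD (35.4 to 52.0). The WT HFD interval of this share overlapped those of both other libraries, and only WT CD and KO HFD were apart. *Uap1* was found in 29.7, 52.3 and 61.9%. The digestion-response genes summed to 9947, 11497 and 13081 CPM there, in the same order as *Has1*, and their part was not tested. Without this state, *Has1* in the remaining FAP-like cells was 121, 158 and 153 CPM, so the log2 ratio of KO HFD to WT HFD was -0.049 in place of 0.10. In the *Agt Sult1e1* state, *Has1* was 134, 105 and 253 CPM, with KO HFD highest, and in *Ret Pgf* it was 85.2, 208 and 171 CPM, with WT CD lowest. In *Dact2 Stmn4* it was 293, 298 and 325 CPM, close to level.

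*Has1* UMIs were concentrated in few cells. The 10% of FAP-like cells with the most held 74.8% of *Has1* UMIs, 65.6% of *Has2*, 54.9% of *Ugdh*, 49.0% of *Uap1*, 46.0% of *Vcan* and 33.1% of *Itih5*. The share was 58.9% for *Cd44*, and 100% for *Has3*, *Hyal1* and *Hyal2*, each found in under 10% of FAP-like cells. This share tends to rise as a gene is found in fewer cells, so it does not order all the genes apart from their abundance. Beside *Has2* and *Cd44*, *Has1* did not follow that trend. It was found in 30.6% of FAP-like cells (9174 UMIs), *Has2* in 25.8% (3447) and *Cd44* in 27.2% (2774). The share of *Has1* was nonetheless above theirs, and the cause was not tested. For *Has1*, 590 cells with 5 or more UMIs held 71.6% of the total, and the highest single cell held 59. *Has2*, with 120 such cells, had its highest cell at 24.

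FAP-like cells were then divided by whether they had a *Has1* UMI (2031 cells) or none (4611 cells). The cells with *Has1* were deeper, at a median of 10215 UMIs, so levels are given as CPM. *Ugdh* was 348 CPM in cells with *Has1* and 117 in cells without, 2.97-fold higher. *Uap1* was 441 and 171 CPM, and *Has2* 93.4 and 37.8 CPM. *Cd44* was 1.83-fold and *Vcan* 1.76-fold higher in cells with *Has1*. *Itih5* was 479 and 514 CPM, or 0.933-fold. Within the states, *Vcan* was higher in cells with *Has1* in 8 of 9 (0.905-fold to 1.90-fold) and *Itih5* in 5 of 9 (0.897-fold to 1.45-fold).

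The difference in *Ugdh* and *Uap1*, whose start sequences are printed with that of *Has1*, was seen in each library. The ratio for *Ugdh* was 2.41-fold in WT CD, 3.05-fold in WT HFD and 3.34-fold in KO HFD, and for *Uap1* 2.46-fold, 2.50-fold and 2.71-fold. Within each of the 9 states, *Ugdh*, *Uap1*, *Has2* and *Cd44* were higher in cells with *Has1*, with *Ugdh* between 1.67-fold and 3.77-fold. The division was made for the hyaluronan genes and a few added ones. How many of all genes would be higher in cells with *Has1* is not given, so counts of states describe these genes only. With 6483 FAP-like cells thinned to 3000 UMIs before they were divided (159 shallower ones were left out), *Ugdh* stood 2.81-fold and *Uap1* 2.37-fold higher. This was a separate draw from the one behind the thinned shares of cells. It left 342, 405 and 484 cells with *Has1* in WT CD, WT HFD and KO HFD. From outside the 10 genes, 4 were added after their levels were seen. *Gfpt2*, which starts the hexosamine pathway, was 2.41-fold higher in cells with *Has1*. *Tnfaip6*, which transfers heavy chains onto hyaluronan, was 2.35-fold higher, *Ptx3*, a pentraxin that binds this matrix, 3.48-fold, and the versican-cleaving protease *Adamts5* 1.31-fold. Within the states, *Gfpt2* and *Tnfaip6* were higher in 9 of 9, *Ptx3* in 7 (0.584-fold to 4.58-fold) and *Adamts5* in 6 (0.908-fold to 2.001-fold). The digestion-response genes summed to 16329 CPM with *Has1* and 14508 without, and their part in the pairing was not tested.

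**Figure D5:**
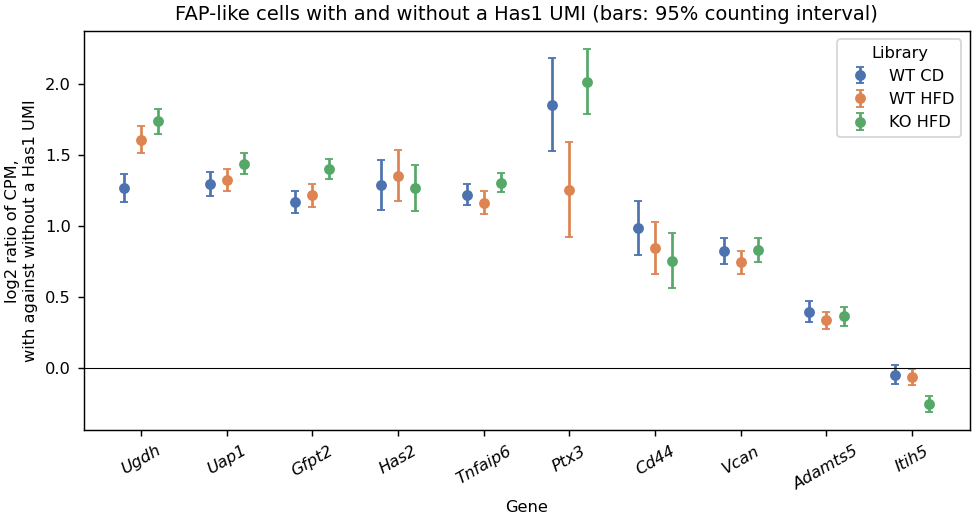
Log2 ratio of CPM in FAP-like cells with a *Has1* UMI to those without (vertical axis) for 10 genes, 1 point per library with its 95% counting interval. The precursor enzymes, *Has2*, *Tnfaip6* and *Ptx3* lie above 1 in all 3 libraries, and *Itih5* lies at or below 0.

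The rest of the pathway was read from lists. All 7 genes of precursor supply other than *Ugdh* and *Uap1* could be compared in FAP-like cells, and none was 1.5-fold higher or lower in either comparison, beside 0.667% of all genes higher and 0.815% lower in WT HFD against WT CD, and 0.581% and 0.272% in KO HFD against WT HFD. All 7 ratios were above 0 for WT HFD against WT CD, with a median of 0.15, beside 70.8% of all genes above 0. For KO HFD against WT HFD, 1 of the 7 was above 0, beside 38.2% of all genes. *Gfpt2* was 274, 276 and 312 CPM in WT CD, WT HFD and KO HFD, and *Ugp2*, which makes UDP-glucose, 266, 275 and 233. Both were highest in FAP-like cells of all classes. *Gfpt1*, the related enzyme, was 57.0 CPM in FAP-like cells and 114 in monocyte-like cells.

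Of 15 binding and crosslinking genes, 2 reached 10 CPM in FAP-like cells. *Tnfaip6* was 284, 263 and 347 CPM in WT CD, WT HFD and KO HFD. *Ptx3* was 17.1, 16.9 and 35.8 CPM, with KO HFD above both others and a log2 ratio to WT HFD of 1.08 (0.89 to 1.28), past 1.5-fold, where 0.581% of all genes were higher. By state, *Ptx3* was highest in *Agt Sult1e1* (72.8, 52.8 and 118 CPM) and *Ociad2 Cd109* (46.8, 52.1 and 101 CPM).

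Of 7 receptors, 3 could be compared in FAP-like cells. *Layn* (layilin), a membrane receptor for hyaluronan, was 16.0, 24.1 and 22.2 CPM, and 1.51-fold higher in WT HFD than in WT CD (log2 0.60, 0.39 to 0.81), beside 0.667% of all genes. With TMM scaling it was 1.44-fold higher and no longer past 1.5-fold. *Tlr4* was 17.4, 20.6 and 17.3 CPM.

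Of 5 proteases that cut versican, all could be compared, and 1 was 1.5-fold higher in WT HFD than in WT CD, beside 0.667% of all genes, with 0 lower, beside 0.815%. *Adamts5* was 313 CPM in WT CD, 493 in WT HFD and 368 in KO HFD, with log2 ratios of 0.66 (0.61 to 0.71) and -0.42 (-0.47 to -0.38). With TMM scaling the first was 0.59, at the 1.5-fold limit. *Adamts5* took the same order of libraries as *Vcan*, and both were highest in the *Dact2 Stmn4* state, *Adamts5* at 792 CPM. *Adamts1* ran the other way, at 411, 380 and 490 CPM, and was highest in endothelial-like cells (942). *Adamts9* was highest in mural-like cells among the larger classes (110).

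Of 8 breakdown genes counted, 3 could be compared in FAP-like cells, and none was 1.5-fold higher or lower, beside the same shares of all genes as for precursor supply. *Hexa*, which encodes a lysosomal enzyme, was 170, 195 and 182 CPM in WT CD, WT HFD and KO HFD. *Gusb* (β-glucuronidase) was highest in macrophage-like cells (106), and *Hexa* was higher there (425) than in FAP-like cells. *Cemip*, which takes part in hyaluronan breakdown at the cell surface, had 8 UMIs in FAP-like cells.

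Over 26 groups, the 9 FAP states and the other named classes with libraries summed, the 3 genes most like each of 5 hyaluronan genes were found by the Pearson r of log2(CPM + 1) among 13169 genes. For *Has1* they were *Hspb8* (0.96), *Tmeff2* (0.94) and *Plac9b* (0.94), the last with a near-identical copy. For *Has2* they were *Itga11* (0.91), *Sdk1* (0.90) and *Pla1a* (0.89), and for *Vcan* *Lrp1* (0.93), *Igsf8* (0.91) and *Abca9* (0.89). For *Itih5* they were *Kdelr3* (0.98), *Antxr1* (0.96) and *Arhgef40* (0.96), and for *Cd44* *Grk2* (0.90), *Gla* (0.89) and *Tuba1c* (0.89). The groups share libraries and 9 of them are states of FAP-like cells.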

How the data were processed

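The authors mapped 10x Genomics 3′ V3.1 reads to mm10 with Cell Ranger 6.1.1 (submitters' processing notes; the file headers name another release) and deposited raw UMI counts per gene for the barcodes called as cells. The hyaluronan genes, the pathway lists and the comparisons were chosen with earlier results of these data known.

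All barcodes were kept. Counts were scaled to 10000 per cell and log-transformed in scanpy 1.11.5 (Python 3.11.15, scipy 1.17.1). The 2000 most variable genes, without any listed gene, gave 30 principal components, 15 neighbours and 31 Leiden clusters (resolution 1, leidenalg 0.10.2). Names came from marker sets: the best-scoring set (mean log2 ratio against the remaining clusters) was used where its score reached 1 and 3 of its markers were seen in 10% of cells. A shallow cluster, with median UMIs under 1/3 of the lowest library median, was left unnamed if none of its set's markers were among its leading genes. These rules named 18 classes and left 343 cells in 2 clusters unnamed. Classes are rebuilt here and are not the study's. Scrublet called 1.26, 1.09 and 1.33% of barcodes doublets in WT CD, WT HFD and KO HFD. These were kept, and removed in an alternative.

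UMI counts were added up within class or state of each library and expressed as CPM. Levels carry exact Poisson, ratios exact conditional binomial and shares Clopper-Pearson intervals at 95%, for counting error only. Genes with 10 CPM in 1 of 2 libraries were compared, at 1.5-fold, the study's fold threshold. With 1 library per group there is no test and no p-value. Thinning drew 3000 UMIs per cell, in separate draws for the shares of cells and for the division by *Has1*. Named genes were the 10, up to 2 per list with the highest CPM in FAP-like cells, any past 1.5-fold there and any at 100 CPM in its highest class. Mast-like (24) and myofiber-like (36) cells were left out of class orders. TMM factors came from edgeR 4.0.16 in R 4.3.3. Scripts were tested on simulated data. A result on a listed gene is not reported here.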

Additional observations from a re-analysis of the deposited data

How the results depend on the processing

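No paired analysis was possible because each group has 1 library, and no replicate could be left out. Of the 10 genes, 0 were past 1.5-fold in either comparison. With a threshold of 25% above the lower value the count was 4 in WT HFD against WT CD and 2 in KO HFD against WT HFD. With at least 10 UMIs in place of 10 CPM it was 1 in KO HFD against WT HFD, *Has3*, on 7 and 4 UMIs. Under that rule 6.25% of 14615 genes were higher and 4.17% lower. Under each other alternative the count of hyaluronan genes past 1.5-fold stayed at 0. The number of genes highest in FAP-like cells was 6 without doublets, after a quality filter, in thinned cells and at Leiden resolution 0.5. The signs of several single log2 ratios turned, and the cause was not tested. *Has2* in WT HFD against WT CD became -0.0080 with k-means states weighted alike and -0.026 with a finer split of states. *Itih5* in KO HFD became 0.046 against the other 2 libraries combined. *Has1* in KO HFD against WT HFD became -0.049 without the *Ociad2 Cd109* cells, and *Ugdh* -0.085 from 0.020. *Uap1* in the same comparison, -0.052 with an interval that spans 0, became 0.17 with states weighted alike, 0.11 with k-means states, 0.067 with the finer split and 0.0996 against the other 2 libraries combined. The finer split, the removal of that state and the TMM values of *Layn* and *Adamts5* were added after the data were seen. Over 11 settings, *Itih5* ranged from 0.37 to 0.57 and *Vcan* from 0.25 to 0.51 in WT HFD against WT CD, and *Vcan* from -0.38 to -0.16 in KO HFD against WT HFD. Past 25%, *Itih5* held in all 11, and *Has1* was lost in WT HFD against the other 2 libraries combined (0.13). *Ugdh*, *Vcan* and *Cd44* were lost in several. Counts of all genes past 1.5-fold, 54 higher and 66 lower in WT HFD against WT CD, became 753 and 907 with no CPM minimum, 126 and 101 in thinned cells, 33 and 107 with TMM, and 21 and 37 against the other 2 libraries combined. In KO HFD against WT HFD, 47 higher and 22 lower became 914 and 609, 79 and 55, 58 and 18, and 21 and 17 in the same order, 29 and 17 with states weighted alike, 26 and 19 with k-means states and 23 and 13 with the finer split. Depth limits *Has3*, *Hyal1* and the smaller classes.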

Other observations

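*Vcan* in monocyte-like cells was counted 1, 5 and 57 times in WT CD, WT HFD and KO HFD, from 17, 29 and 65 cells, or 10.7, 34.1 and 150 CPM.

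*Has1* was counted 20 times in 5 of 98 dendritic-like cells of KO HFD and 0 times in the 86 and 57 cells of WT CD and WT HFD. In the same KO HFD cells *Itih5* was at 53.5 CPM, beside 12.2 and 4.33. In lymphatic-like cells *Has1* was counted 1, 1 and 21 times, the last in 4 of 80 cells. FAP-like cells held 94.5% of all *Has1* UMIs and 94.4% of *Itih5*. Doublets were kept here, and the part of FAP-like RNA in these few cells was not tested.

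In tenocyte-like cells *Has1* was 75.7, 44.4 and 194 CPM in WT CD, WT HFD and KO HFD, from 23, 20 and 19 cells. The digestion-response genes summed to 17903, 13066 and 19532 CPM there, in the same order as *Has1*, and their part was not tested.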
